A study of Mus musculus with 6 samples.

Results

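Syn2, Fam171a1, Tmem238, Pcsk4, Ak4 and Alpl are 6 genes whose mean normalised reads were 7.47-fold to 105-fold lower in DN3 thymocytes in which GATA sites of a Myc enhancer were mutated. They were found by Ensembl identifier in GENCODE M21 among the 21135 genes of the deposited table, and were chosen because their levels were sharply lower in the mutant, so their own differences are described here without a test. DN3 thymocytes are the CD4 and CD8 double-negative cells of the thymus that rearrange the T-cell receptor beta gene. RNA was sequenced from 3 libraries of mice homozygous for mutations in GATA sites 1 and 2 of the enhancer NMe and from 3 libraries of mice wild type for NMe, all of the C57BL/6 strain. The labels number the libraries but do not say whether each came from its own animal, so each p-value speaks of the spread among libraries, which may be technical. The labels used here do not tell the age or sex of the mice, or how the cells were isolated.

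Synapsins coat synaptic vesicles in nerve terminals and tether them to actin. Proprotein convertases such as Pcsk4 cleave the precursors of secreted and membrane proteins. Adenylate kinases move phosphate groups between nucleotides, and alkaline phosphatases remove phosphate from substrates outside the cell. Fam171a1 and Tmem238 encode membrane proteins whose roles are little known. MYC, the product of the gene that NMe drives, is a transcription factor that binds E-box motifs with its partner MAX.

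Promoter sequence could be examined for 5 of the 6 genes, since RefSeq windows on GRCm38.p6 were found for all but Pcsk4. There were 12 windows of 300 bases (250 before and 50 after a start). They are not all separate sequences, since the Ak4 windows starting at 101419039, 101419062 and 101419071 overlap in most of their bases. Both strands were searched for 5 motifs. CACGTG is the E-box that MYC binds. A core of hypoxia response elements, ACGTG, also lies within that E-box. The GATA factors bind AGATAA. RBPJ, the partner of Notch in the nucleus, binds GTGGGAA. The last, TGATGNAA, is bound by ATF4 with C/EBP factors. CACGTG was found in 1 window, of Ak4, and is held by 7.15% of all 32851 windows. GTGGGAA was found in 1 window, of Syn2, against 6.38% of all windows. ACGTG was found in 2 windows, 1 of Ak4 and 1 of Fam171a1, against 19.6% of all. AGATAA and TGATGNAA were found in 0 of the 12, against 11.2% and 3.97% of all. A match is a string of letters and does not show binding. The windows with CACGTG and GTGGGAA are shown because they carry the motifs of MYC and of the Notch pathway. Capitals mark the motif, which in Syn2 reads TTCCCAC because it lies on the opposite strand, 123 bases before the start. The Ak4 motif lies 208 bases before its start.
Syn2 (chr6:115134652-115134951, + strand): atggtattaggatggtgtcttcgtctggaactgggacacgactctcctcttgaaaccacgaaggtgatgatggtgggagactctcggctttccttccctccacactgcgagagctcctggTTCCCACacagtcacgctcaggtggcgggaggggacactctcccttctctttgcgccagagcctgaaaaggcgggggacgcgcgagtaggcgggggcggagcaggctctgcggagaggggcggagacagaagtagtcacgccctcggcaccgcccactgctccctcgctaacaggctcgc
Ak4 (chr4:101419453-101419752, + strand): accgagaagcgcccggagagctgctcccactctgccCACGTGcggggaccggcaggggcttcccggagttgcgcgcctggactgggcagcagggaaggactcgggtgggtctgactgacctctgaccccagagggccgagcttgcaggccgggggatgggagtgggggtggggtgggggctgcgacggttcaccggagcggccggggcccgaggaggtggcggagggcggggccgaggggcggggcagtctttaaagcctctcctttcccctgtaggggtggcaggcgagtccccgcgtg

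Recovered reads ranged from 38.6 to 48.3 M in the mutant libraries and from 42.4 to 51.3 M in the wild-type libraries. Myc, on chromosome 15, had 5562, 4612 and 6165 normalised reads in the mutant libraries, against 18041, 19223 and 20196 in the wild-type libraries. All 12 DN3 markers were in the table and passed the filter, and Il2ra, which encodes the DN3 surface marker CD25, had 96837 to 110890 normalised reads in the mutant libraries and 55810 to 61247 in the wild-type libraries. In that list 5 genes rose (Il2ra, Cd3e, Cd3g, Notch1 and Dtx1, the last by 1.91 ± 0.09 on the log2 scale) and 1 fell (Rag1, by 0.58 ± 0.10), against 10.9% lower and 7.94% higher of all tested genes at a limma adjusted p of 0.05. Cd4 had 24.4 to 39.7 normalised reads in the mutant libraries and 53.0 to 85.4 in the wild-type libraries. The 10 genes of earlier thymic progenitors summed to 2796 to 3895 normalised reads in the mutant and 4421 to 5264 in the wild type. Among these progenitor genes 2 of 9 tested fell, Bcl11a and Mef2c, and 0 rose, set against the same shares over all genes. The 6 double-positive genes summed to 46520 to 55341 in the mutant and 34751 to 40428 in the wild type, with 2 rising. Markers of B cells, NK and innate lymphoid cells, and stroma each had 1 gene that rose (Blk, Nkg7 and Pecam1) and 0 that fell. In bulk samples, fewer cells of a type and less RNA per cell cannot be told apart, and the part of these markers in the results was not tested. The 6 red-cell genes in the table summed to 73.9 to 103 in the mutant libraries, and in the wild-type libraries to 98.6, 8196 and 38.3 for replicates 1, 2 and 3. Without wild type replicate 2 the log2 change was -6.13 for Syn2, -4.05 for Alpl, -3.76 for Fam171a1, -3.63 for Tmem238, -2.89 for Ak4 and -2.88 for Pcsk4.

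Across the transcriptome, 17815 genes with a mean of at least 10 normalised reads were tested for genotype with limma on log2(value + 1). At an adjusted p of 0.05, 18.8% changed, 10.9% lower and 7.94% higher in the mutant, and the median log2 change was 0.03. With every library scaled to the same total the balance turned, to 1646 lower and 1827 higher, against 1938 lower and 1414 higher with the deposited scaling. All 6 genes passed the filter on low values, and in all 6 the highest mutant library lay under the lowest wild-type library. For 20.3% of the tested genes the libraries were separated in that direction, and since the 6 were chosen on this difference nothing is read from it. In the order of log2 changes over all tested genes they stood at places 1 (Syn2), 16 (Fam171a1), 17 (Alpl), 21 (Tmem238), 42 (Ak4) and 43 (Pcsk4) from the lowest. The order was then kept to the 3126 called genes whose mean reached 50 and whose genotypes were separated. There Pcsk4 (-2.90) was the last of the 6, at place 13, and the next were Rapgef5 (-2.87) and Tspan4 (-2.77). Genes outside the 6 also stood above Pcsk4, with Bcat1 (-4.06) and Pdia5 (-3.83) at places 2 and 3.

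**Figure D1:**
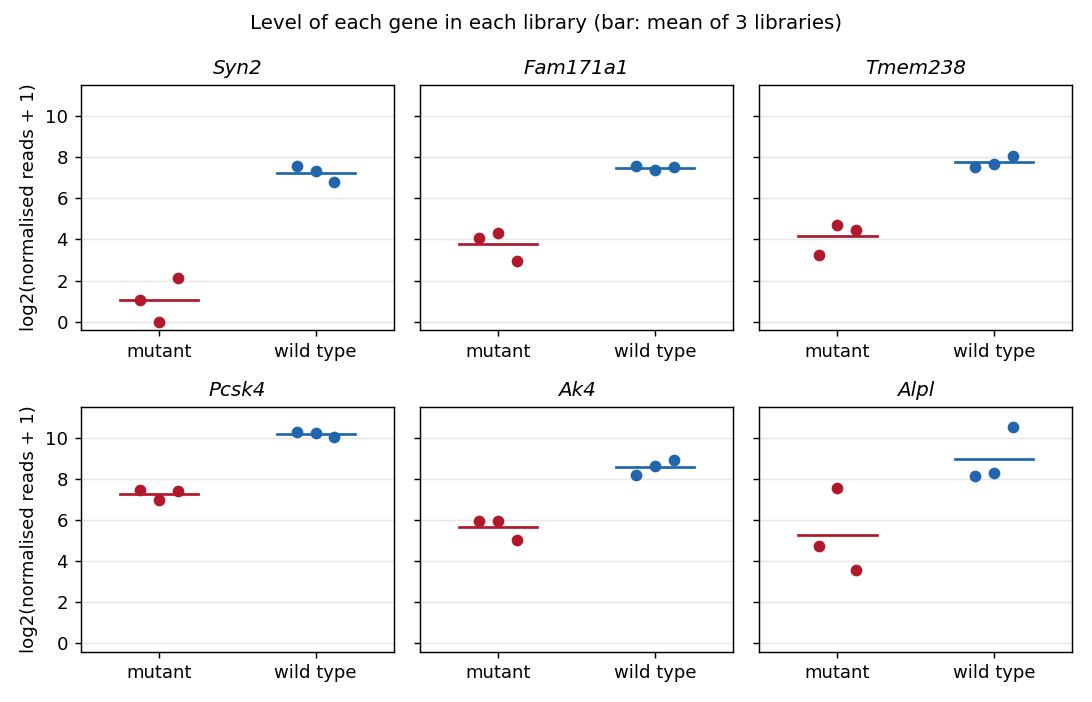
Level of each gene in each library, as log2(normalised reads + 1), with the 3 mutant libraries left of the 3 wild-type libraries and a bar at each mean. The genotypes do not overlap for any of the 6, Syn2 reaches 0 in a mutant library, and Alpl spreads most within each genotype.

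Syn2 (ENSMUSG00000009394.13, chromosome 6, GRCm38 115134902 to 115282006, + strand) encodes synapsin II. It had 1, 0 and 3 reads in the mutant libraries, against 178, 168 and 123 in the wild-type libraries. In normalised reads these were 1.06, 0 and 3.31 in the mutant and 189, 160 and 109 in the wild type. Hardly any Syn2 RNA was left in the mutant. The level was 111-fold lower in the mutant by the ratio of scaled reads, with a 95% Clopper-Pearson interval of 43.2 to 410.5 for counting error only. The log2 change was -6.18 ± 0.60 (SE), and the mutant side of it rests on 4 reads in all.

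Fam171a1 (ENSMUSG00000050530.14, chromosome 2, 3114224 to 3227806, + strand) encodes a single-pass membrane protein. It had 15.8, 19.0 and 6.62 normalised reads in the mutant libraries, against 190, 163 and 180 in the wild-type libraries. The wild-type libraries lay close together, with the highest 1.16 times the lowest, and the mutant libraries ranged over 2.87-fold at only 6 to 21 reads each. The mean was 13.8 ± 6.44 in the mutant and 178 ± 13.4 in the wild type (SD, n = 3 each), a 12.9-fold lower level.

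Tmem238 (ENSMUSG00000030431.8, chromosome 7, 4784557 to 4789656, - strand) encodes a small membrane protein of unknown function. It had 8.44, 25.4 and 20.96 normalised reads in the mutant libraries, against 181, 204 and 261 in the wild-type libraries. Every wild-type library was at least 7.15 times the highest mutant library. The mean was 18.3 ± 8.77 in the mutant and 215 ± 40.8 in the wild type (SD, n = 3 each), an 11.8-fold lower level and a log2 change of -3.60 ± 0.41 (SE).

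Pcsk4 (ENSMUSG00000020131.14, chromosome 10, 80321283 to 80329498, - strand) encodes a proprotein convertase known from sperm and needed for male fertility in mice. It was the most abundant of the 6 per length in both genotypes, at 52.7 normalised reads per kb of exon in the mutant and 393 in the wild type. Its libraries held 175, 126 and 167 normalised reads in the mutant, against 1240, 1192 and 1060 in the wild type. It was also the steadiest, with a pooled standard deviation within genotypes of 0.20 on the log2 scale, against 0.45 to 1.71 for the others. The mean was 156 ± 26.4 in the mutant and 1164 ± 93.2 in the wild type (SD, n = 3 each), a 7.47-fold lower level.

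Ak4 (ENSMUSG00000028527.18, chromosome 4, 101419277 to 101466995, + strand) encodes an adenylate kinase of the mitochondrial matrix that is known to be induced in hypoxia. It had 61.2, 61.6 and 31.996 normalised reads in the mutant libraries, against 294, 392.5 and 474 in the wild-type libraries. The lowest wild-type library was 4.77 times the highest mutant library. The mean was 51.6 ± 17.0 in the mutant and 387 ± 90.4 in the wild type (SD, n = 3 each), a 7.50-fold lower level. Of the 50-base words in its annotated transcripts 10.2% also occur in Ak3l2-ps, a processed pseudogene on chromosome 2, so a small part of its reads could map to both places. Fam171a1, Tmem238, Pcsk4 and Alpl shared 0 such words with any other gene.

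Alpl (ENSMUSG00000028766.10, chromosome 4, 137741733 to 137796384, - strand) encodes tissue-nonspecific alkaline phosphatase, an enzyme anchored to the cell surface that removes phosphate from pyrophosphate and pyridoxal phosphate. It had 25.3, 185 and 11.03 normalised reads in the mutant libraries, against 284, 308 and 1447 in the wild-type libraries. Mutant replicate 2 and wild type replicate 3 stood far above the other libraries of their genotype, and the lowest wild-type library was 1.54 times the highest mutant library. The range was 16.7-fold within the mutant and 5.09-fold within the wild type. The log2 change was -3.69 ± 0.91 (SE), -2.93 without wild type replicate 3 and -4.82 without mutant replicate 2. Its spread within genotypes was wider than that of 99.6% of tested genes with a mean of at least 50. The 6 myeloid markers in the table, of 11 listed, summed to 2248, 1815 and 1315 normalised reads in mutant replicates 1 to 3. In wild type replicates 1 to 3 they summed to 1833, 1454 and 1225, and 0 of 4 tested passed. Lyz2 made up most of each sum, with 2017, 1642 and 1092 in the mutant and 1598, 1281 and 1133 in the wild type. The part of these markers in the spread of Alpl was not tested.

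Genes inside or beside 3 of the 6 were also at or near 0 in the mutant. Timp4, an inhibitor of metalloproteinases, lies inside the body of Syn2 on the opposite strand (115241892 to 115252205). It had 0 reads in each mutant library, against 23, 6 and 12 in the wild-type libraries. Tmem190, a membrane protein gene known from sperm, ends 216 bp from the end of Tmem238 and runs toward it. It had 0 reads in each mutant library, against 8, 10 and 15 in the wild-type libraries. With 3 reads over the mutant group as the floor, Timp4 was at least 13.0-fold lower and Tmem190 at least 10.4-fold lower in the mutant, and the lower 95% Clopper-Pearson limits of the read ratios were 10.1 and 8.03. Both lay under the filter and were named after their values were seen, and in a limma fit without the filter their adjusted p was 0.0181 and 0.0178. Of the 21135 genes in the table, 14 had 0 reads in every mutant library and reads in every wild-type library, and 14 showed the opposite pattern.

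Reep6, which encodes a protein that shapes the endoplasmic reticulum, starts 455 bp from the start of Pcsk4 and runs away from it. It had 0, 3 and 1 reads in the mutant libraries, against 35, 38 and 69 in the wild-type libraries. Its log2 change was -4.49 ± 0.68 (limma adjusted p = 0.00191), lower in every mutant library, and the ratio of scaled reads was 33.7-fold (95% Clopper-Pearson interval 12.9 to 125, counting error only). On the other side of Pcsk4, 2310011J03Rik lies 746 bp away and had 3039, 2502 and 1989 normalised reads in the mutant libraries, against 2528, 2803 and 2507 in the wild-type libraries. Its log2 change of -0.08 ± 0.15 did not pass (adjusted p = 0.76). Strand is not kept by the kits used. Timp4 lies within Syn2 on the opposite strand and their transcripts share 42 words of 50 bases, so their reads cannot be told apart with certainty. The annotated bodies of Tmem190 and Reep6 do not overlap those of Tmem238 and Pcsk4, and no such word is shared. The ends of Tmem190 and Tmem238 face each other only 216 bp apart. Reads running past the annotated end of Tmem238 could therefore be counted for Tmem190, which was not tested.

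**Figure D2:**
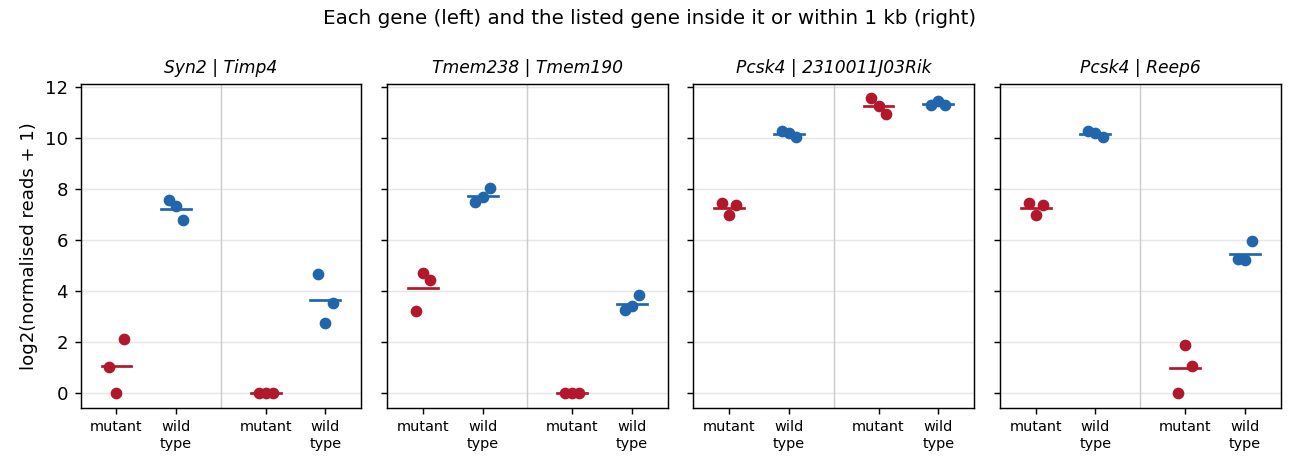
Each panel sets a lost gene (left) beside the listed gene inside it or within 1 kb (right), as log2(normalised reads + 1), with mutant libraries left of wild-type libraries and bars at means. Timp4 and Tmem190 are at 0 in every mutant library and Reep6 nearly so, while 2310011J03Rik overlaps between genotypes.

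Of the 32 tested genes within 100 kb of the 6, Reep6 and 2310011J03Rik included, 6 fell and 2 rose, against 10.9% lower and 7.94% higher over all tested genes, and their median log2 change was -0.04, against 0.03 over all tested genes. Besides Reep6, those that fell were the ribosomal protein genes Rps15 (-0.84 ± 0.11, 27 kb from Pcsk4) and Rpl28 (-0.66 ± 0.12, 3.2 kb from Tmem238), Hspbp1 of the heat shock system (-0.74 ± 0.10), Tamm41 of mitochondrial lipid synthesis (-0.49 ± 0.11) and Uqcr11 of the respiratory chain (-0.56 ± 0.13). Tmem150b beside Tmem238 (0.63 ± 0.19, adjusted p = 0.0395) and the noncoding E130102H24Rik beside Ak4 (1.04 ± 0.31, adjusted p = 0.0408) rose. The call of Tmem150b was lost without any 1 library (adjusted p 0.0613 to 0.118), and that of E130102H24Rik without mutant replicate 1 or 2 or wild type replicate 2 or 3 (0.0933 to 0.134). Without wild type replicate 2 the neighbours called numbered 4, with Tamm41 (0.0564) and Uqcr11 (0.0717) also lost, and without mutant replicate 2 they numbered 5. Pparg, the fat-cell regulator that follows Syn2, changed by 0.43 ± 0.27, Nmt2 beside Fam171a1 by 0.06 ± 0.12, Dnajc6 beside Ak4 by 0.44 ± 0.14, and Ece1, Usp48 and Gm13012 beside Alpl by -0.19 ± 0.15, 0.15 ± 0.10 and -0.02 ± 0.17. Cox6b2 beside Tmem238 (-0.14 ± 0.15) and the noncoding 0610043K17Rik (0.69 ± 0.28) and Gm22533 (0.54 ± 0.58) beside Ak4 did not pass either.

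**Figure D3:**
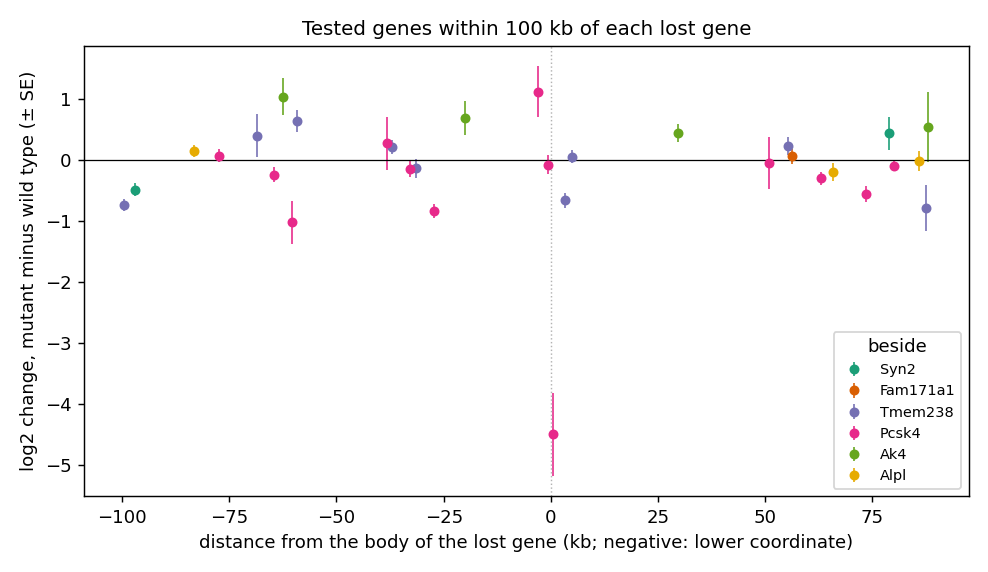
Log2 change (mutant minus wild type, with SE) of each of the 32 tested genes within 100 kb, by distance in kb from the body of the lost gene and coloured by that gene. Reep6, 455 bp from Pcsk4, lies at -4.49, and every other neighbour lies between -1.02 and 1.12.

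Of 22 paralogues considered, 10 are described here and 9 of them were tested. Of these 3 fell, by at most 0.62 on the log2 scale, 0 rose, and their median log2 change was -0.53, against 0.03 over all tested genes, of which 10.9% fell and 7.94% rose. Without mutant replicate 3, wild type replicate 2 or wild type replicate 3 the count was 1. Among the synapsins, Syn3 had 39.0, 61.6 and 23.2 normalised reads in the mutant libraries, against 93.3, 53.5 and 75.6 in the wild-type libraries. The genotypes overlapped and it did not pass (-0.90 ± 0.41, adjusted p = 0.152). Syn1 was under the filter, with 9.498, 3.62 and 6.62 in the mutant and 1.06, 0.95 and 4.45 in the wild type. Per kb of exon, Syn2 made up 2.42%, 0% and 10.8% of the summed synapsin level in the mutant libraries, against 77.2%, 83.1% and 67.5% in the wild-type libraries. Syn2 held most of the synapsin level in each wild-type library, and Syn1 and Syn3 held most of it in each mutant library. Since Syn2 was chosen for its lower level, this shift adds no separate result.

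Fam171a2, the listed relative of Fam171a1, had 13.7, 48.0 and 15.4 normalised reads in the mutant libraries, against 48.8, 53.5 and 64.1 in the wild-type libraries. Its libraries did not overlap, although mutant replicate 2 came close to the wild type. The log2 change of -1.30 ± 0.49 did not pass (adjusted p = 0.092), and was -1.85 without mutant replicate 2 (adjusted p = 0.0216). For Tmem238 and Alpl no listed relative was in the table, so Tmem238l, Alpi, Akp3 and Alppl2 were not analysed here.

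Pcsk4 was described beside 3 other convertase genes. Mbtps1, the site-1 protease of sterol and stress signalling, had 8064, 9673 and 9655 normalised reads in the mutant libraries, against 13851, 14592 and 13558 in the wild-type libraries. It fell by 0.62 ± 0.10 on the log2 scale (adjusted p = 0.00257). Furin, which processes receptors including Notch1, did not pass (0.01 ± 0.47, adjusted p = 0.995). It had 757, 470 and 1184 normalised reads in the mutant libraries, against 1170, 1105 and 322 in the wild-type libraries. Wild type replicate 3 lay under every other library, and the change was -0.60 without wild type replicate 3 (adjusted p = 0.24). Pcsk7, another convertase of the secretory pathway, did not pass either (0.26 ± 0.11, adjusted p = 0.124). Per kb of exon, Pcsk4 made up 3.86%, 2.53% and 3.06% of the summed level of these 4 genes in the mutant libraries, against 17.3%, 16.0% and 16.1% in the wild-type libraries. Since Pcsk4 was chosen for its lower level, its lower share adds no separate result.

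Ak4 held a small share of the adenylate kinase level in both genotypes. Ak4 was chosen for its lower level, so the lower share in the mutant adds no separate result. Per kb of exon it made up 0.67%, 0.70% and 0.40% of the summed level of Ak3, Ak4, Ak6, Ak7 and Ak8 in the mutant libraries, against 2.66%, 3.25% and 3.75% in the wild-type libraries. Ak3 of the matrix, the closest listed relative of Ak4, had 4050, 4240 and 3793 normalised reads in the mutant libraries, against 5172, 5100 and 5373 in the wild-type libraries. It fell by 0.37 ± 0.09 on the log2 scale (adjusted p = 0.0218). This call was lost without mutant replicate 3 or any 1 wild-type library (adjusted p 0.0583 to 0.0718). The nuclear Ak6 was called by a narrow margin (-0.53 ± 0.16, adjusted p = 0.0495), with overlapping genotypes, and its adjusted p ranged from 0.0134 to 0.162 over the alternatives. Ak7 (-1.41 ± 0.73) and Ak8 (0.40 ± 0.83), both genes of ciliated cells with at most 35.0 normalised reads in any library, did not pass.

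**Figure D4:**
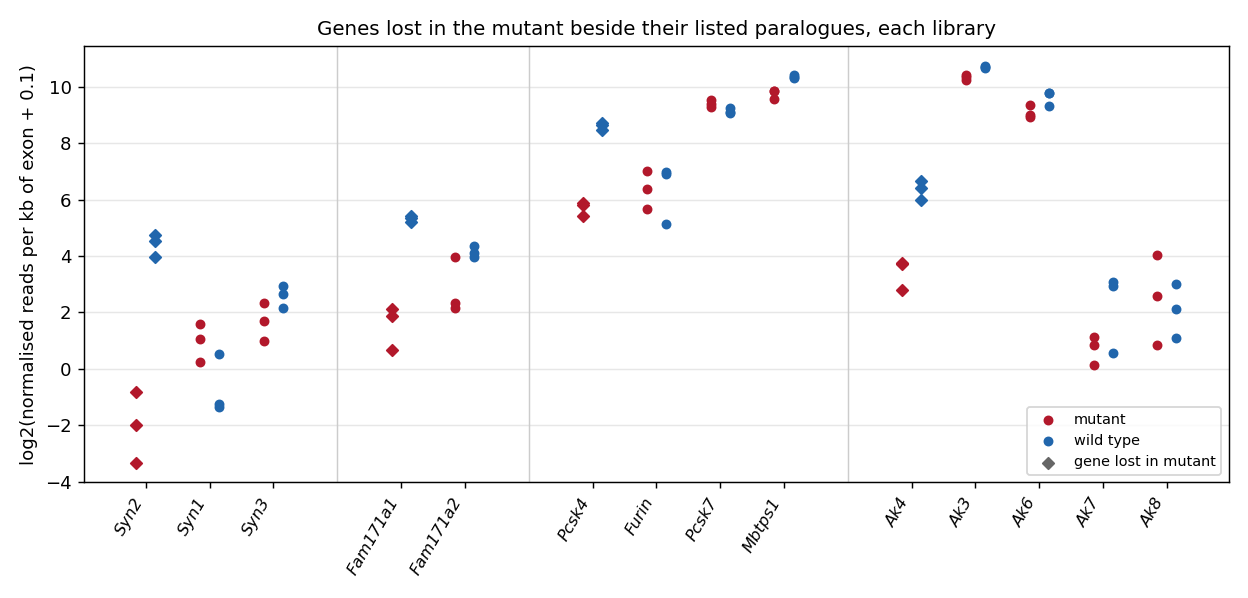
Level per kb of exon, as log2(normalised reads per kb + 0.1), of 4 lost genes (diamonds) and the paralogues described beside them (circles), with the 3 mutant libraries left of the 3 wild-type libraries. The lost genes were chosen for a wide gap between genotypes. The gap between means is smaller for each paralogue shown, the widest being that of Ak7 (3.59-fold), and Ak4 lies far under Ak3 and Ak6.

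Other genes of the processes that the 6 serve were described in 4 lists. In synaptic vesicle trafficking and exocytosis, 23 of 33 genes were in the table and 22 were tested. Of these 3 fell and 3 rose, close to the background of 10.9% lower and 7.94% higher over all tested genes, and the median log2 change was 0.01. Bsn, a scaffold of the presynaptic active zone, had 361, 395.7 and 312 normalised reads in the mutant libraries, against 988, 1408 and 1137 in the wild-type libraries (-1.71 ± 0.17, adjusted p = 0.000256). The vesicle membrane genes Syngr1 (-1.95 ± 0.26) and Syngr2 (-0.96 ± 0.16) fell as well. Those that rose were the vesicle protein gene Sypl (0.70 ± 0.12), Vamp1 of membrane fusion (0.65 ± 0.13) and Unc13d of granule release (0.54 ± 0.10). Vamp1 and Unc13d were named after their values were seen.

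Of 14 further nucleotide kinases 13 were tested; 4 fell and 0 rose, against 10.9% lower and 7.94% higher of all tested genes, and the median was -0.38. Nme4, the nucleoside diphosphate kinase of mitochondria, had 491, 525 and 476 normalised reads in the mutant libraries, against 2106, 2212 and 2699 in the wild-type libraries (-2.22 ± 0.14, adjusted p = 4.13e-05). Nme1 (-0.75 ± 0.11), the guanylate kinase Guk1 (-0.69 ± 0.13) and the thymidine kinase Tk1 (-0.55 ± 0.11) fell by less. With DESeq2 7 were called. Hypoxia-inducible genes, the class in which Ak4 is best known, had 7 of 20 lower and 1 higher, against 10.9% lower and 7.94% higher of all tested genes, with a median of -0.31. Hk2, a hexokinase, had 79.2, 155 and 157 normalised reads in the mutant libraries, against 515, 627 and 594 in the wild-type libraries (-2.21 ± 0.27, adjusted p = 0.000674). Ldha (-1.14 ± 0.10), Aldoa (-0.89 ± 0.14) and Pgk1 (-0.63 ± 0.11) of glycolysis fell, as did Pdk1 (-0.82 ± 0.13), which restrains entry of pyruvate into mitochondria. The prolyl hydroxylase subunit gene P4ha1 (-0.42 ± 0.12) and the oxidoreductase gene Ero1l (-0.52 ± 0.11) fell too, though the call of P4ha1 was lost without mutant replicate 2 or 3 or any 1 wild-type library (adjusted p 0.0512 to 0.118). Ndrg1 rose (0.68 ± 0.12, named after its value was seen). Vegfa (0.50 ± 0.16) missed the threshold (adjusted p = 0.0504) and passed in 9 of 16 alternatives, with an adjusted p of 0.0141 to 0.149 over all of them. The prolyl hydroxylase gene Egln3 (-0.05 ± 0.12) and the mitophagy gene Bnip3 (-0.35 ± 0.24) did not pass.

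The list of extracellular phosphate, adenosine and vitamin B6 metabolism, in which Alpl acts, had 19 tested genes with 2 lower and 4 higher, against 10.9% lower and 7.94% higher of all tested genes, and a median of 0.35. Pdxk, the pyridoxal kinase gene of vitamin B6 metabolism, fell (-0.58 ± 0.14), as did the nucleoside transporter gene Slc29a1 (-0.31 ± 0.09). The phosphatase genes Acp5 (0.94 ± 0.15) and Acpp (0.68 ± 0.18) and the ectophosphodiesterase genes Enpp5 (0.65 ± 0.15) and Enpp4 (0.37 ± 0.11) rose. Acp5 had 2195, 1706 and 1914 normalised reads in the mutant libraries, against 903, 1198 and 942 in the wild-type libraries. The call of Acp5 alone remained without wild type replicate 2, when the count was 1, while without mutant replicate 2 it was 2 and without wild type replicate 3 it was 3. Nt5e, the ectonucleotidase CD73, was low in both genotypes and did not pass (0.48 ± 0.68).

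**Figure D5:**
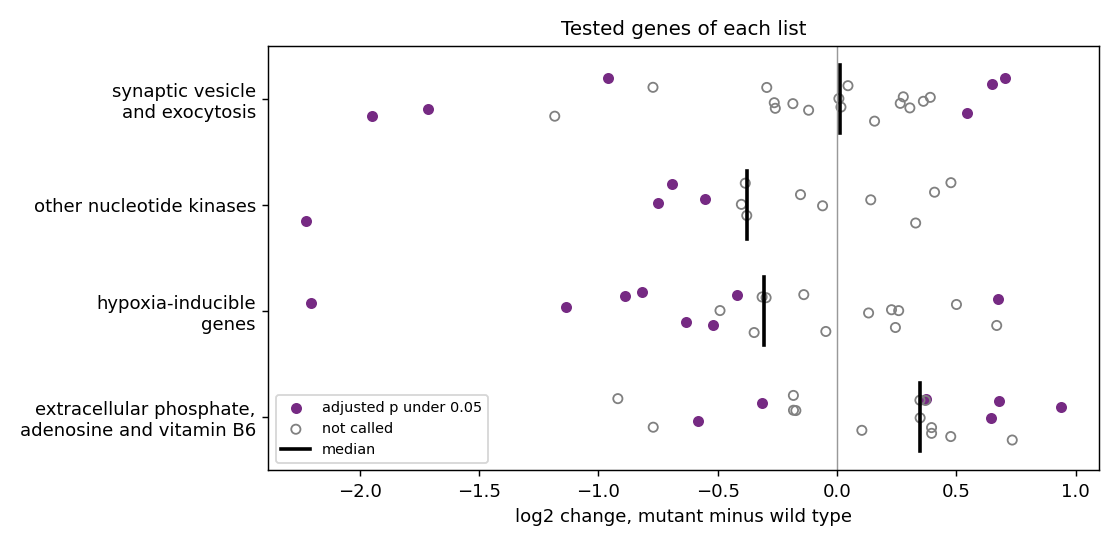
Log2 change (mutant minus wild type) of each tested gene of the 4 lists. Filled points passed an adjusted p of 0.05, open points did not, and the black bar is the median, which lies at 0.01, -0.38, -0.31 and 0.35 from top to bottom.

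The genes most like each of the 6 were found by the root mean square distance between log2 profiles over the 6 libraries, each centred on its mean. The distances describe these libraries and, since the profiles include the difference between genotypes, carry no test. Nearest to Syn2 was Ctsf, the lysosomal protease cathepsin F (distance 0.80), with 0, 0.91 and 4.41 normalised reads in the mutant libraries, against 77.4, 81.2 and 84.5 in the wild-type libraries. The gene models Gm41335 (0.99) and Gm36161 (1.24) followed. Gm41335 lies at 63176838 to 63718289 on chromosome 15, which also holds Myc (61985391 to 61990374). A link between the 2 was not tested. Nearest to Fam171a1 were Pdia5 (0.20), Gfi1b (0.43) and Ak4 (0.48). Nearest to Tmem238 were Lysmd2 (0.21), Bcat1 (0.39) and Gm36161 (0.40). Nearest to Pcsk4 were 2010204K13Rik (0.23), Fkbp11 (0.26) and Prr5 (0.30), and nearest to Ak4 were Tspan4 (0.26), Gfi1b (0.29) and 2010204K13Rik (0.32). Nearest to Alpl were Sept8 (0.80), Ppp1r26 (0.82) and the pseudogene Amd-ps1 (1.05). Neither Alpl nor Syn2 had a match as close as those of the other genes. Among the 6 themselves Pcsk4 and Ak4 were nearest to each other (0.47) and Syn2 and Alpl farthest apart (2.38).

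The transcripts of the 6 genes differ in length and base composition. The longest annotated transcript ranged from 1375 bases in Tmem238 to 4360 in Ak4, against a median of 2684 over 17791 tested genes. Its GC content was 62.5% in Tmem238, 61.1% in Pcsk4, 56.5% in Alpl, 52.2% in Fam171a1, 51.6% in Syn2 and 49.5% in Ak4, against a median of 49.1%. All 6 lay above that median, and Tmem238 and Pcsk4 exceeded 98.6% and 97.6% of tested genes. They lie on 5 chromosomes, with Ak4 and Alpl both on chromosome 4, and none is on chromosome 15 with Myc.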

How the data were processed

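RNA of 6 libraries, 3 per genotype, was converted to cDNA with the SMART-Seq v4 kit and tagged with Nextera XT, per the labels' protocols. STAR 2.5.3, featureCounts, DESeq2 1.20.0 and the builds mm10 and GRCm38 are named in the submitters' processing notes. Which annotation was counted, and how, is not told there. Each deposited value is a signal per gene: the authors' reads over a size factor. All values were whole multiples of 1 step per library (100.0% of 126810 values within 0.1 reads), so whole reads were recovered for the count models. GENCODE M21 (GRCm38) gave symbols for 21100 of 21135 genes.

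Genotype was tested with limma 3.58.1 in R 4.3.3 (two-sided, eBayes with trend) as mutant minus wild type after log2(value + 1), for the 17815 genes averaging 10 or more, with Benjamini-Hochberg adjustment at 0.05. Adjusted p-values printed without a tool come from limma. The log2(value + 1) scale understates the change of rare transcripts, and ± after a log2 change is its standard error. Folds of levels are ratios of mean normalised reads. Levels per kb use merged exons.

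Named were Myc, the 6 genes, their paralogues, the 4 tested genes with the smallest p in each list, neighbours within 100 kb (beyond 4, the called and the nearest on each side), the 3 nearest profiles per gene, and the genes next in order. All other names, including the further called genes of the lists, were picked with the values in view. Some listed genes are not reported here, and the counts, medians, shares and figures leave them out. The 6 genes and the lists were chosen with earlier results of these data known. No library repeated another (chi-square of counts over its degrees of freedom 26.4 to 55.4 for pairs within a genotype). The alternatives were other pseudocounts, filters and scalings, a replicate block, robust empirical Bayes, edgeR 4.0.16 and DESeq2 1.42.0 on recovered reads, and leaving out 1 library at a time. The scripts were tested on simulated counts.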

Additional observations from a re-analysis of the deposited data

How the results depend on the processing

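The log2 changes of the 6 genes kept their direction under all 16 alternatives and moved by more than the spread within genotypes only for Syn2, to -4.61 with a pseudocount of 5. Leaving out 1 library at a time gave -6.71 to -5.66 for Syn2, -3.98 to -3.28 for Fam171a1, -3.89 to -3.15 for Tmem238, -2.99 to -2.76 for Pcsk4, -3.10 to -2.61 for Ak4 and -4.82 to -2.85 for Alpl. It gave 1905 to 2788 called genes over the transcriptome (lowest without wild type replicate 2), against 3352 over all libraries, and 1 to 3 called paralogues, 4 to 9 neighbours and 1 to 5 genes of the phosphate, adenosine and vitamin B6 list, where fewer samples were fitted. With DESeq2 7 further nucleotide kinases were called, against 4, and 4168 genes in all, against 3283 with edgeR. Signs that turned were all of genes not called: Furin with edgeR (-0.091) and DESeq2 (-0.10) and from -0.60 to 0.34 on leaving out 1 library, Ak8 from -0.32 to 1.15, Nmt2 from -0.039 to 0.13, 2310011J03Rik from -0.23 to 0.080, and Gm13012 with equal library totals (0.037) and from -0.14 to 0.069. The cause was not tested. Same-numbered libraries of the genotypes did not deviate together (correlations -0.02, -0.07 and -0.01). With 3 libraries per genotype this cannot exclude a pairing, and the main fit used none. With the replicate block 3066 genes were called, and among the called genes named above Ak6 (adjusted p = 0.0761), P4ha1 (0.0696), Enpp4 (0.073) and Slc29a1 (0.0593) lost their call. Depth limits Syn2, Timp4, Tmem190 and Reep6 most, with 0 to 3 reads per mutant library.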

Other observations

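Wild type replicate 3 stood apart from the other wild-type libraries in several genes met here, in both directions. Alpl was at 1447 normalised reads there, against 284 and 308 in wild type replicates 1 and 2. Furin was at 322 there, against 1170 and 1105. Rab27a, a GTPase of granule release, was at 959, against 3952 and 4415, and in the mutant libraries it was at 1141, 1048 and 1194. Rab27a did not pass the test over all libraries (log2 change -1.18 ± 0.46, limma adjusted p = 0.102) and did without wild type replicate 3 (-1.89, adjusted p = 8.99e-05). These genes were picked out after their values were seen, and the cause was not tested.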
